A study of Rattus norvegicus with 10 samples.

Results

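This account covers 6 genes used to read GABA interneurons in brain tissue: the GABA-synthesising enzymes Gad1 and Gad2, the calcium-binding protein gene Pvalb, and the neuropeptide genes Sst, Vip and Cck. They were taken by Ensembl identifier from a list of 6, and 6 of 6 were present among the 16643 genes of the table. The symbols are those of that list, since neither the deposited table nor the reference table used here pairs Ensembl identifiers with names. In the order above the identifiers are ENSRNOG00000000007, ENSRNOG00000018200, ENSRNOG00000006471, ENSRNOG00000001837, ENSRNOG00000018808 and ENSRNOG00000019321.

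GABA is the main inhibitory transmitter of the hippocampus and is made from glutamate by the enzymes that Gad1 and Gad2 encode. The Gad1 enzyme supplies much of the GABA of the whole cell, and the Gad2 enzyme is concentrated at nerve terminals, where GABA is loaded into vesicles. Nearly all hippocampal interneurons carry these enzymes, while their subtypes differ in other products. Parvalbumin marks many fast-spiking basket and axo-axonic cells, which contact the soma and axon of pyramidal cells. Somatostatin marks dendrite-targeting cells, vasoactive intestinal peptide marks cells that often contact other interneurons, and cholecystokinin marks another class of basket cells. Cck transcripts are also found in excitatory neurons of the forebrain, so Cck is less specific to interneurons than the other members.

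Polyadenylated RNA of the whole hippocampus was sequenced from 10 male rats aged 92 days, 5 from the bred High Responder line (bHR) and 5 from the bred Low Responder line (bLR). The lines were selected for high and low locomotor activity in an unfamiliar enclosure, and all rats came from generation 43. Every rat had received a daily vehicle injection into the peritoneum for 14 days under standard housing, had spent 15 minutes on an elevated plus maze followed by a social interaction test, and was killed 1 hour after the maze, so neither line is an untouched baseline. Each library is 1 rat, and which rats were littermates was not analysed here.

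The libraries held 29106105 to 48663164 reads assigned to genes, and levels are given as log2 RPM, the log2 of reads per 1000000. The library of bLR replicate 5 stood apart from the rest. There, 47 genes exceeded their median over the remaining libraries by more than 3 log2 units and together took 7.86% of the reads, where the same genes took 0.49 to 0.84% elsewhere. None of the 6 interneuron genes belonged to that set (0 of 6). Its effective size, the authors' scaling denominator, came to 0.933 of the total, and that of each remaining library to between 1.00 and 1.02. Markers of pyramidal, granule or glial cells were not analysed here, for want of names paired with identifiers.

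The first comparison asked whether the interneuron genes differed between the lines. All 6 had a higher mean in bHR than in bLR, with a median difference of 0.14 log2 units, where the median over all 16643 genes was -0.0072 and 47.2% of genes had a higher mean in bHR. None of the 6 passed the test across all genes (limma, Benjamini-Hochberg adjusted p under 0.05), where 1.38% of all genes passed, 0.613% with the higher mean in bHR. At an unadjusted p under 0.05 there were 3 of the 6, Gad2, Sst and Vip, against 15.1% of all genes and 7.04% counting only those higher in bHR. With voom weights in place of the deposited log2 values alone, limma again passed 0 of the 6, where 242 of all 16643 genes passed. In 1 of the 6, Gad2, the rats of the lines did not overlap, against 4.15% of all genes and 1.99% counting only those higher in bHR. In tissue measured in bulk, fewer cells of a type and less RNA per cell cannot be told apart, and this holds for each value that follows.

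**Figure D1:**
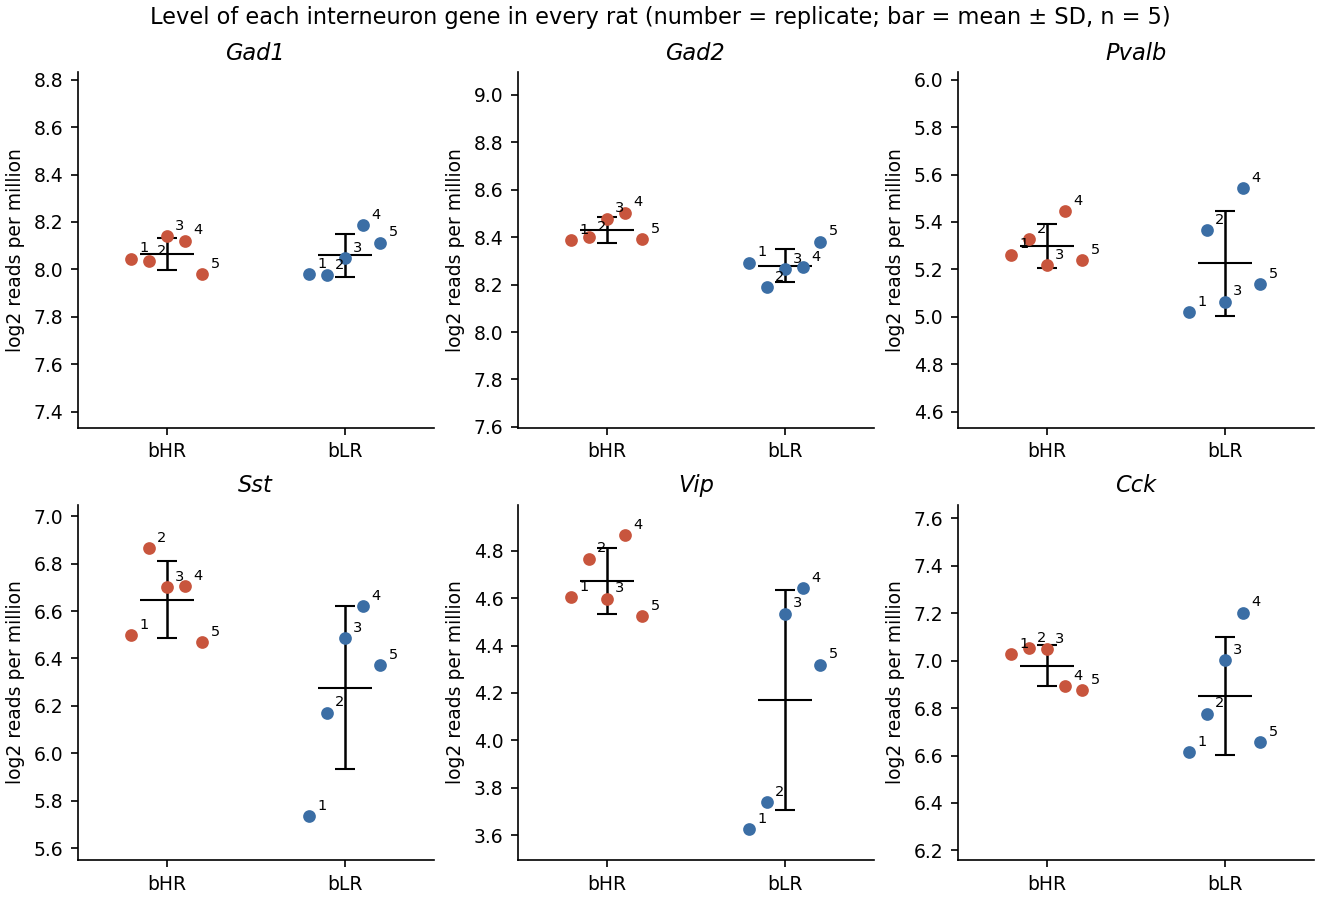
Level of each of the 6 genes in every rat, in log2 RPM on the vertical axis, with bHR and bLR on the horizontal axis. Points are rats with their replicate numbers, the horizontal bar is the mean and the whiskers are the SD (n = 5), and every panel has a vertical axis of the same length in log2 units. The means of Gad1 are 8.06 in both lines, Gad2 does not overlap between them, and in Vip bLR replicates 1 and 2 lie at 3.63 and 3.74 while the other 8 rats lie at 4.32 or above.

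Of the synthesising enzymes, Gad1 had nearly equal means. In the bHR rats, in replicate order, it measured 8.05, 8.04, 8.14, 8.12 and 7.98 log2 RPM, and in the bLR rats 7.98, 7.97, 8.05, 8.19 and 8.11. The highest and the lowest values were both from bLR rats and enclosed the whole bHR range. The means were 8.06 ± 0.066 (SD, n = 5) in bHR and 8.06 ± 0.091 (n = 5) in bLR, a difference of 0.0043 log2 units (SE 0.047, 95% interval -0.098 to 0.11, limma adjusted p = 0.98).

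Gad2, the terminal enzyme, measured 8.39, 8.40, 8.48, 8.50 and 8.39 log2 RPM in the bHR rats and 8.29, 8.19, 8.26, 8.28 and 8.38 in the bLR rats. All 5 bHR rats lay above all 5 bLR rats, with bHR replicate 1 (8.39) and bLR replicate 5 (8.38) almost touching. In linear terms the means were 345.6 ± 13.2 RPM (SD, n = 5) in bHR and 311.2 ± 14.9 RPM in bLR. The log2 difference was 0.15 (SE 0.039, 95% interval 0.066 to 0.24), a 1.11-fold ratio, with an unadjusted limma p of 0.0023 and an adjusted p of 0.089 over all genes. The two-sided exact permutation test of this value alone gave p = 0.0079, the smallest that 5 against 5 rats allow. By limma p, Gad2 ranked 438 of 16643 genes.

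Gad2 crossed the threshold in some settings. Without bLR replicate 5 the difference was 0.18 log2 units (limma adjusted p = 0.045), and with every library scaled to its total reads it was also 0.18 (limma adjusted p = 0.041, where 1.17% of all genes passed). Both settings bear on bLR replicate 5, the bLR rat closest to bHR in Gad2. Its total reads include the 47 genes that stood apart there, and its effective size was 0.933 of that total. With total reads the median difference over all genes was 0.018, against -0.0072 in the main fit. Over all 21 alternative settings tried for Gad2 the difference ran from 0.13 to 0.18 and the limma adjusted p from 0.041 to 0.26, and it passed in 2 of them.

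**Figure D2:**
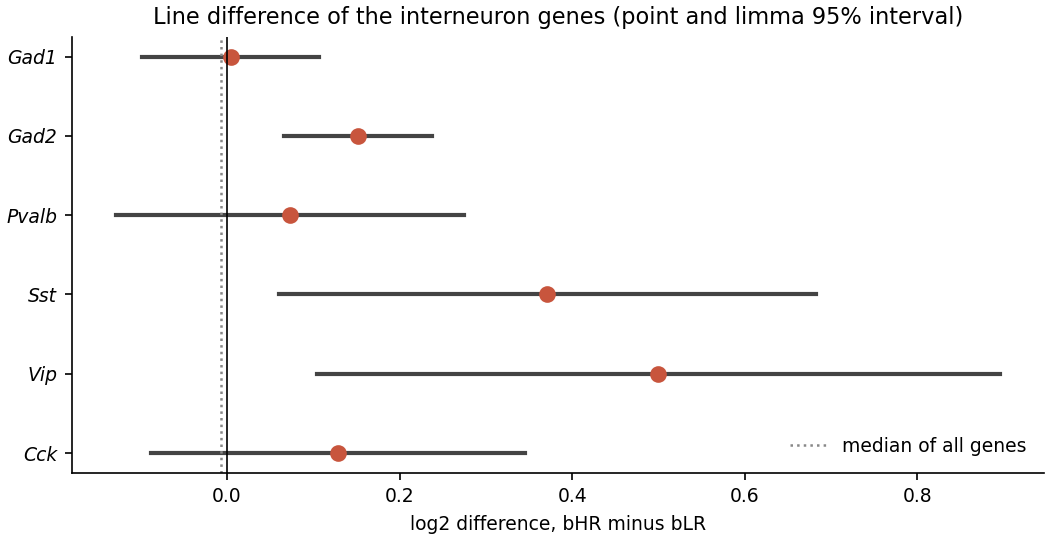
Difference in log2 level between the lines, bHR minus bLR, on the horizontal axis for each of the 6 genes. Points are the limma estimates, bars their 95% intervals before adjustment for the number of genes, and the dotted line is the median of all 16643 genes (-0.0072). The intervals of Gad2, Sst and Vip lie above 0, and those of Gad1, Pvalb and Cck include it.

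Pvalb, which encodes parvalbumin, did not pass. Its values were 5.26, 5.33, 5.22, 5.45 and 5.24 log2 RPM in the bHR rats and 5.02, 5.37, 5.06, 5.54 and 5.14 in the bLR rats. The bLR rats spread to both sides of the bHR rats, with 3 of them below every bHR rat and replicate 4 above every one. The means of 5.30 ± 0.092 (SD, n = 5) and 5.23 ± 0.22 (n = 5) differed by 0.073 log2 units (SE 0.092, 95% interval -0.13 to 0.27, limma adjusted p = 0.76). The difference was 0.022 without bLR replicate 1, 0.032 without bLR replicate 3, 0.036 without bHR replicate 4 and 0.15 without bLR replicate 4.

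Sst, the somatostatin gene, measured 6.50, 6.86, 6.70, 6.71 and 6.47 log2 RPM in the bHR rats. In the bLR rats it measured 5.73, 6.17, 6.49, 6.62 and 6.37. Replicates 1, 2 and 5 of bLR lay below every bHR rat, while replicates 3 and 4 lay within the bHR range. Mean levels were 100.8 ± 11.5 RPM (SD, n = 5) in bHR and 79.2 ± 17.4 RPM in bLR. The log2 difference was 0.37 (SE 0.14, 95% interval 0.060 to 0.68), a 1.29-fold ratio, with an unadjusted limma p of 0.023, an adjusted p of 0.24 and an exact permutation p of 0.048 for this value alone. Of the 500 genes nearest to Sst in level, 0.4% had a larger absolute line difference. That share takes no account of the spread between rats, and by limma p Sst ranked 1600 of 16643 genes.

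Vip had the largest difference of the 6. It measured 4.61, 4.77, 4.60, 4.86 and 4.52 log2 RPM in the bHR rats, from 791 to 1333 reads. In the bLR rats it measured 3.63, 3.74, 4.53, 4.64 and 4.32, from 460 to 762 reads. Replicates 1 and 2 of bLR were the lowest of all 10 rats. Replicate 5 also lay below every bHR rat, and replicates 3 and 4 lay within the bHR range. Means were 25.6 ± 2.51 RPM (SD, n = 5) in bHR and 18.8 ± 5.69 RPM in bLR. The log2 difference was 0.50 (SE 0.18, 95% interval 0.10 to 0.90), a 1.41-fold ratio, with an unadjusted limma p of 0.017, an adjusted p of 0.21 and an exact permutation p of 0.056 for this value alone. Of the 500 genes nearest in level, 1.4% had a larger absolute difference, again without regard to spread, and by limma p Vip ranked 1365 of 16643 genes.

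Neither peptide gene passed in any of the 21 alternative settings tried for each. The adjusted limma p ran from 0.13 to 0.58 for Sst and from 0.11 to 0.70 for Vip, and the differences stayed positive, from 0.24 to 0.46 and from 0.28 to 0.62. The Vip difference was 0.36 without bLR replicate 1 and 0.39 without bLR replicate 2. It was 0.28 when the score was added to the model. The Sst difference was 0.24 without bLR replicate 1.

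Cck, the cholecystokinin gene, measured 7.03, 7.05, 7.05, 6.89 and 6.88 log2 RPM in the bHR rats and 6.61, 6.78, 7.0, 7.20 and 6.66 in the bLR rats. As with Pvalb, bLR replicate 4 lay above every bHR rat and 3 bLR rats (replicates 1, 2 and 5) lay below every one. The means of 6.98 ± 0.087 (SD, n = 5) and 6.85 ± 0.25 (n = 5) differed by 0.13 log2 units (SE 0.099, 95% interval -0.088 to 0.35, limma adjusted p = 0.60). The difference was 0.070 without bLR replicate 1, 0.080 without bLR replicate 5 and 0.22 without bLR replicate 4, and the limma adjusted p without bLR replicate 4 was 0.19.

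Sequence around the annotated start site is shown for the genes with an unadjusted p under 0.05. The neuropeptide genes Sst and Vip are textbook targets of the cAMP response element, a site bound by CREB, and Gad2 gives a comparison. Promoter sequences matched 5 of the 6 genes by symbol in the RefSeq table for GRCr8, a later build than the one the reads were aligned to. Cck, the remaining neuropeptide gene, had none and was not searched. Each stretch holds 110 bases before the annotated start and 20 bases from it on, on the plus strand at chr17:89671608-89671737 for Gad2, chr11:90461436-90461565 for Sst and chr1:44470370-44470499 for Vip. Capitals mark matches to TGACGTCA, the full cAMP response element, to its half-site TGACG, and to the TATA box TATAAA, each searched on both strands.
Gad2: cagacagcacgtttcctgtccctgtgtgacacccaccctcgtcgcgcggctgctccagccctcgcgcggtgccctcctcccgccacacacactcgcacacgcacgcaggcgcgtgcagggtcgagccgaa
Sst: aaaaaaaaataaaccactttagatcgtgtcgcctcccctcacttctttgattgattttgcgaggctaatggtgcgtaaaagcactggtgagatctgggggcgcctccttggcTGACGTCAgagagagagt
Vip: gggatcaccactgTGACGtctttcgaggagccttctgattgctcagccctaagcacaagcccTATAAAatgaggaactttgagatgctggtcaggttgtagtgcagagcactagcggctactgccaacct

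The Sst stretch holds the full element after the annotated start, at positions 3 to 10 counted from it. Every full element also contains the half-site on each strand. Which start these rats used was not measured here. The Vip stretch holds a half-site at positions -97 to -93 and a TATA box at -48 to -43. In the whole 300-base windows, the full element was present in 1.83% of 33469 RefSeq promoters, the half-site in 21.2% and the TATA box in 14.2%. Gad2 had no match to any of the 3 in its window. Gad1 had a TATA box match at -213 to -208, and Pvalb a half-site at -241 to -237. The window of Vip held 3 TATA box matches, with those outside the stretch shown at -175 to -170 and -165 to -160. These matches describe the letters of the reference sequence, and binding was not measured here.

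All 6 genes had a larger SD among bLR rats than among bHR rats, as did 64.3% of all genes. The SD in bLR was 3.33 times that in bHR for Vip, 2.84 times for Cck, 2.39 times for Pvalb and 2.11 times for Sst, against 1.38 times for Gad1 and 1.26 times for Gad2. The median ratio over all genes was 1.24. A ratio at least as high as that of Vip was found in 5.45% of genes. For the ratio of Cck this share was 8.44%, and for that of Sst 18.7%. This is a description, and the difference in spread was not tested. Spread was also set against genes of like level: the SD of Sst exceeded that of 98.0% of the 500 genes nearest in level in bHR and 98.8% in bLR. For Vip these shares were 82.0% and 98.6%, for Cck 86.0% and 97.0%, and for Pvalb 76.0% and 92.6%. For the enzymes they were 79.4% and 63.6% (Gad1) and 63.4% and 42.4% (Gad2). The SD expected from counting alone at the fewest Vip reads (460) was 0.067 log2 units, and the SD of Vip between rats was 0.14 in bHR and 0.46 in bLR.

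**Figure D3:**
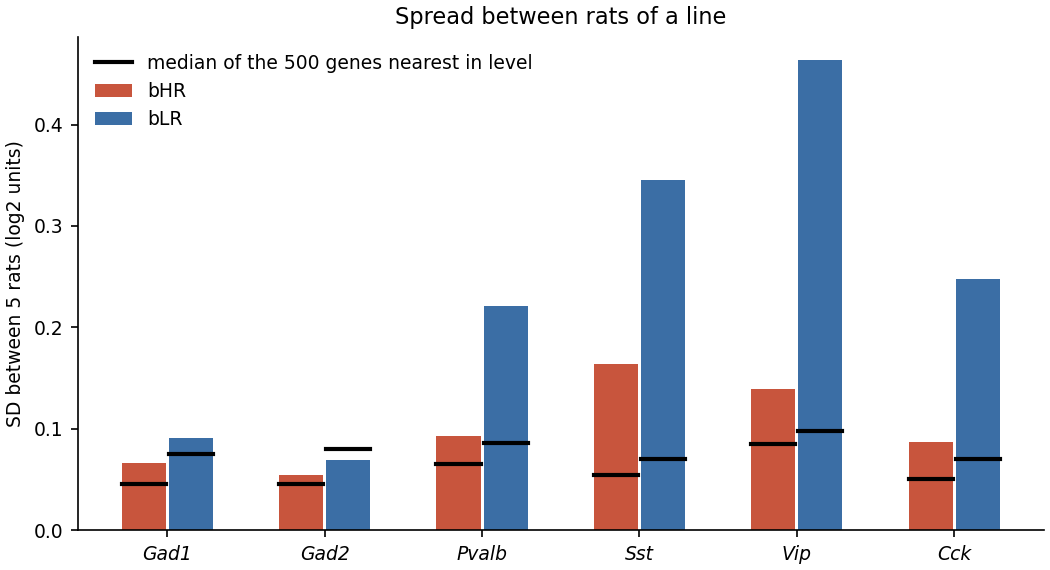
SD between the 5 rats of each line, in log2 units on the vertical axis, for each of the 6 genes, with bHR and bLR as separate bars. The black line across each bar is the median SD of the 500 genes nearest in level in that line. The bars for Vip reach 0.14 in bHR and 0.46 in bLR, and those for Gad2 0.055 and 0.069.

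The second comparison addressed the balance between subtypes. The log2 ratio of a pair of genes within a rat does not depend on how that library was scaled. Ratios were compared for 11 pairs: Gad2 over Gad1, the 4 subtype genes over the mean of Gad1 and Gad2, and the 6 pairs among the subtype genes. The size of a ratio mixes transcript length with abundance, so only its difference between lines is read. None of the 11 passed after Benjamini-Hochberg adjustment over the pairs (0 of 11). A pair alone at the smallest exact permutation p that 5 against 5 rats allow, 0.0079, could not pass, since it adjusts to 0.087. The count of 0 therefore does not show that the balances were equal. At an unadjusted exact p under 0.05 there were Gad2 over Gad1 and Vip over Cck.

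Gad2 over Gad1 was the 1 pair of the 11 in which the lines did not overlap. In replicate order its log2 ratio was 0.34, 0.36, 0.34, 0.38 and 0.41 in the bHR rats and 0.31, 0.21, 0.22, 0.087 and 0.27 in the bLR rats. The means of 0.37 ± 0.030 (SD, n = 5) and 0.22 ± 0.085 (n = 5) differed by 0.15, a 1.11-fold shift. The exact permutation p was again the minimum of 0.0079, or 0.087 adjusted over 11 pairs. Since Gad1 had nearly equal means (difference 0.0043), this largely repeats the difference of Gad2 itself (0.15) and is no separate result. The share of all genes that did not overlap when taken relative to Gad1 was not computed. Over 13 alternative settings the ratio differed by 0.11 to 0.17, with an adjusted exact p of 0.044 to 0.26. The ratio passed in 2 of them, without bLR replicate 3 and without bLR replicate 5 (adjusted exact p = 0.044 in each). In both, its exact p was 0.0079, the same as with all rats. The adjusted p was lower there because another pair, Pvalb over Vip or Vip over Cck, also reached an exact p of 0.0079. Without any 1 of the bHR rats the lines still did not overlap, with an exact p of 0.016 (0.17 adjusted). For the difference of medians the adjusted exact p was 0.26. When all genes were expressed relative to Gad1 and fitted together, Gad2 differed by 0.15 with a limma adjusted p of 0.26, where 0.589% of the 16642 genes passed.

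Against the mean of the 2 enzymes, Sst differed by 0.29 log2 units (exact permutation p = 0.079, 0.15 adjusted) and Vip by 0.42 (exact p = 0.071, 0.15 adjusted). Without bLR replicate 1 the Sst difference was 0.17. For Vip over the enzymes, bLR replicates 1 and 2 lay at -4.51 and -4.34 and replicate 5 at -3.93, while replicates 3 and 4 lay at -3.62 and -3.59, within the bHR range of -3.71 to -3.45. The means of Pvalb over the enzymes were -2.95 and -2.94 in bHR and bLR, a difference of -0.0050 (exact p = 0.92). Cck over the enzymes differed by 0.051 (exact p = 0.68), and by -0.017 without bLR replicate 5. In a fit of all genes relative to the enzymes, limma adjusted p was 0.22 for Sst, 0.17 for Vip, 0.98 for Pvalb and 0.78 for Cck. There 1.56% of all genes passed, 40 with the higher mean in bHR and 220 with the lower. The median difference over all genes in that fit was -0.085.

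Of the 6 pairs among the subtype genes, those of Vip with Pvalb and with Cck had the largest differences between lines. Pvalb over Vip was 0.63 ± 0.061 (SD, n = 5) in bHR and 1.05 ± 0.45 in bLR, a difference of -0.43 (exact permutation p = 0.056, 0.15 adjusted over 11 pairs). Vip over Cck was -2.31 ± 0.17 in bHR and -2.68 ± 0.32 in bLR, a difference of 0.37 (exact p = 0.040, 0.15 adjusted). Each of these passed in 1 of 13 alternative settings, and the adjusted p reached 0.26 in others. Vip over Cck passed without bLR replicate 5 and Pvalb over Vip without bLR replicate 3 (adjusted exact p = 0.044 in each). In both settings Gad2 over Gad1 had the same exact p, 0.0079, and a pair alone at that p would not have passed. The difference of medians was 0.21 for Vip over Cck and -0.28 for Pvalb over Vip (exact permutation p = 0.12 for each), and Pvalb over Vip differed by -0.28 without bLR replicate 2. Pvalb over Sst differed by -0.30 (exact p = 0.095) and Sst over Cck by 0.24 (exact p = 0.079). The differences were -0.13 for Sst over Vip (exact p = 0.25) and -0.056 for Pvalb over Cck (exact p = 0.63), and without bLR replicate 2 they were -0.047 and -0.0026.

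**Figure D4:**
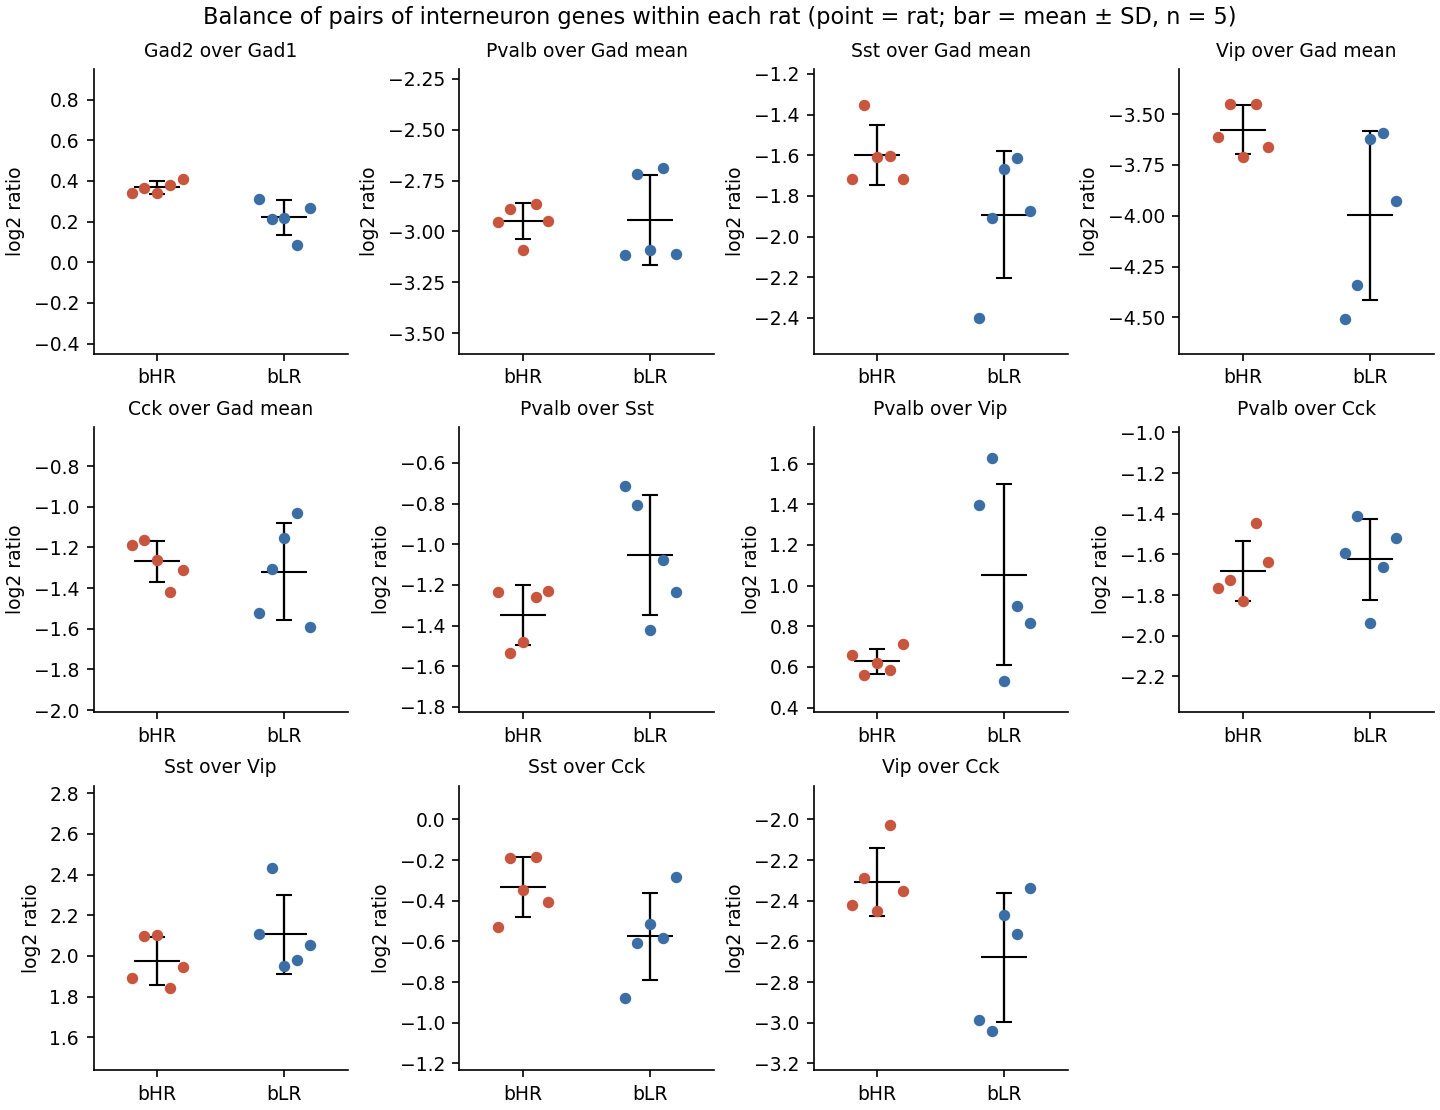
Log2 ratio of each of the 11 pairs within each rat on the vertical axis, with bHR and bLR on the horizontal axis. Points are rats, the horizontal bar is the mean and the whiskers the SD (n = 5), and every panel has a vertical axis of the same length in log2 units. Gad2 over Gad1 is the 1 panel in which the lines do not overlap. In Pvalb over Vip the bHR rats lie between 0.56 and 0.71. The bLR rats lie on both sides of that range, from 0.53 to 1.63.

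The rats themselves were then compared within each line. In bLR, replicate 4 had the highest level of 5 genes, Gad1, Pvalb, Sst, Vip and Cck, and replicate 1 had the lowest level of 4, Pvalb, Sst, Vip and Cck. In bHR, replicate 4 had the highest level of Gad2, Pvalb and Vip, and replicate 5 the lowest of Gad1, Sst, Vip and Cck. Co-variation was measured as the correlation of line-centred log2 levels over the 10 rats, for all 15 pairs of the 6 genes, with every rearrangement of rats within their lines as the permutation test. After adjustment over the 15 pairs, 1 pair passed by Pearson's r.

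That pair was Sst and Vip, with a Pearson's r of 0.89 (permutation p = 0.0010, 0.016 adjusted) and a Spearman's rho of 0.85 (permutation p = 0.0050, 0.075 adjusted). Within lines r was 0.70 in bHR and 0.93 in bLR, each over 5 rats. Without the 2 rats farthest from the median of Sst, bLR replicates 1 and 4, r was 0.75, and with libraries scaled to total reads it was 0.88. Leaving out 1 rat at a time gave r from 0.82 to 0.95. The adjusted permutation p then rose above 0.05 without bHR replicate 5 and without each of the 5 bLR rats, with 0.21 as the highest, without bLR replicate 3. Among 13795 other genes with a mean log2 level of at least 1, 0.63% tracked Sst more closely than Vip did, and 0.91% tracked Vip more closely than Sst did.

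The remaining pairs did not pass. Gad1 had an r of 0.74 with Vip (permutation p = 0.045, 0.21 adjusted), 0.69 with Sst (p = 0.053 by permutation) and 0.62 with Gad2 (p = 0.084 by permutation). Cck had an r of 0.74 with Sst and 0.69 with Vip, which fell to 0.39 and 0.28 without bLR replicates 1 and 4. Gad2 had values of -0.25 with Cck and -0.16 with Pvalb. The genes closest to each of the 6 had an r of 0.97 for Gad1, 0.96 for Gad2, 0.97 for Pvalb, 0.99 for Sst, 0.98 for Vip and 0.98 for Cck, over 10 rats and 13795 genes. None of the 3 closest genes to any of the 6 was another of the 6. These last values are a description, with no test.

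**Figure D5:**
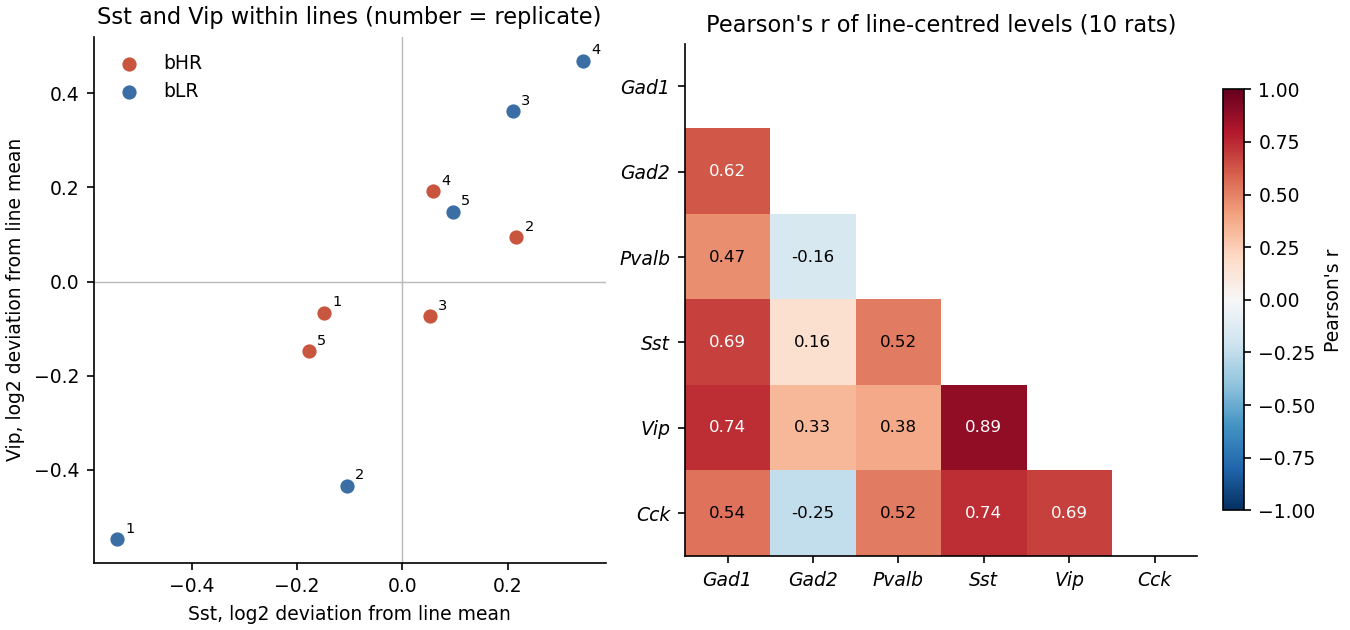
Left, deviation of Vip from its line mean (vertical axis) against that of Sst (horizontal axis), both in log2 units, with 1 point per rat and its replicate number. Right, Pearson's r of line-centred log2 levels over 10 rats for each pair of the 6 genes, on a colour scale from -1 to 1. Sst and Vip reach 0.89, with bLR replicates 1 and 4 at the ends, and Gad2 has the 2 negative values, -0.16 with Pvalb and -0.25 with Cck.

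The third comparison set each gene against the rats' social interaction scores within lines. The bHR scores lay between 16.67 and 28.33 and the bLR scores between 7.33 and 24.0, and the bLR rat with the score of 24.0 was replicate 4, the rat with the highest level of 5 of the 6 genes in its line. With line and score fitted together in limma, 0 of the 6 passed, as did 0% of all genes. In that fit none had an unadjusted p under 0.05 either, against 7.11% of all genes. For the score, limma with voom weights also passed 0 of the 6, and 0 of all 16643 genes. Cck came closest, with a slope of 0.018 log2 units per score point (SE 0.0083), an unadjusted limma p of 0.055 and an adjusted limma p of 0.71. The slope of Vip was 0.025 (SE 0.016, limma adjusted p = 0.77), that of Pvalb 0.012 (SE 0.0084), of Sst 0.0067 (SE 0.014) and of Gad1 0.0045 (SE 0.0044). Gad2 had a slope of -0.0015 (SE 0.0038). Without bLR replicate 4 the slopes of Gad1, Pvalb and Sst turned negative, at -0.0037, -0.0067 and -0.021, that of Vip was 0.0042 and that of Cck was 0.0012. Without bLR replicate 5 the slope of Gad2 was 0.0014 and that of Sst 0.011. With the replicate number as a block the slope of Cck was 0.032, with an unadjusted limma p of 0.0083 and an adjusted limma p of 0.49, and that of Gad2 was -0.012.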

How the data were processed

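Whole-hippocampus RNA of 10 rats was read as single 50-base reads; only RNA with an integrity number over 8 was used, per the labels and design text. The same text states alignment to Rnor_6.0 by Subread without indel detection, featureCounts on Ensembl 85, and a filter of at least 16 counts in at least 5 samples. The deposited table holds the log2 RPM (log2 of reads per 1000000) that the authors obtained from limma's voom function; R 3.2.2 comes from the submitters' processing notes. No source used here states the strand setting of the counting, so overlapping genes may share reads.

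A single constant per library turned 100% of values into whole reads, within 0.01 reads, after removing voom's offset of 0.5. All 6 genes met the count filter in these libraries, while 505 of the 16643 genes did not. The shares over all genes include those 505. No same-line pair of libraries was a duplicate: over 20 pairs the lowest chi-square per gene was 6.05.

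The deposited log2 values were fitted with limma 3.58.1 (R 4.3.3) on line alone, with an intensity trend and Benjamini-Hochberg adjustment over all 16643 genes. Single values and ratios were compared by two-sided exact permutation over 252 assignments. The scripts were tested on simulated data. Python 3.11.15, numpy 2.4.6, pandas 2.3.3, scipy 1.17.1 and matplotlib 3.10.9 were used.

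The genes, lists and tests were chosen with earlier results of these data known. All 6 genes are named, and the 3 genes closest to each are given by their correlation alone. Lists of other interneuron and cell type genes had been written by symbol; 0 of 16643 identifiers matched the RefSeq table (GRCr8), so they were not read. Alternatives covered the variance trend, low-value filter, scaling, a prior count of 2 reads, library and voom weights, a replicate block, a score covariate and leaving out each library.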

Additional observations from a re-analysis of the deposited data

Results flagged for a closer look

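Within each line, outlying single values were looked for in 40 groups of 5: the 6 gene levels, the 11 ratios and, for each library, total reads, effective over total size and the share of its top gene. There were 2 such values, and chance gives about 1 in 20 groups. Both belonged to bLR replicate 5. Its effective size was 0.933 of its total, far from the nearest bLR library at 1.00. The gene with the most reads there held 4.06% of them, far from the nearest bLR library at 2.14%. No level and no ratio of the 6 genes was outlying in this way (0 of each).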

How the results depend on the processing

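The comparison relative to Gad1 was chosen after seeing the data. Of 125 alternative values for the 6 line differences, 115 kept their direction and their side of the threshold. Gad2 passed at 0.18 with total-read scaling. With the score as a covariate Gad1, Pvalb and Cck were at -0.036, -0.037 and -0.031, and relative to the enzymes Pvalb was at -0.0050. Of 143 values for the ratios, 134 were kept. With the replicate block the exact test had 32 assignments and a smallest p of 0.0625, so no ratio could pass there. Among those not kept, Pvalb over the enzymes reversed in 4 settings, by medians to 0.14, and Cck over the enzymes in 1. Gad2 over Gad1 passed in 2, and Pvalb over Vip and Vip over Cck in 1 each. By medians Pvalb over Sst was at -0.18 and Pvalb over Cck at -0.13, and both were kept. For each of these the cause was not tested.

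Leaving out 1 library gave 0.13 to 0.18 for Gad2, -0.017 to 0.036 for Gad1, 0.022 to 0.15 for Pvalb, 0.24 to 0.46 for Sst, 0.36 to 0.62 for Vip, 0.070 to 0.22 for Cck, 0.11 to 0.17 for Gad2 over Gad1, -0.048 to 0.059 for Pvalb over the enzymes, -0.017 to 0.12 for Cck over the enzymes, 0.17 to 0.36 for Sst over the enzymes, 0.29 to 0.52 for Vip over the enzymes, -0.39 to -0.21 for Pvalb over Sst, -0.13 to -0.0026 for Pvalb over Cck, -0.17 to -0.047 for Sst over Vip, 0.17 to 0.31 for Sst over Cck, -0.56 to -0.28 for Pvalb over Vip, 0.28 to 0.46 for Vip over Cck, 0 to 1 correlated pairs and 0.82 to 0.95 for Sst with Vip. Score slopes ran from -0.0037 to 0.0070 for Gad1, -0.0042 to 0.0014 for Gad2, -0.0067 to 0.018 for Pvalb, -0.021 to 0.014 for Sst, 0.0042 to 0.034 for Vip and 0.0012 to 0.023 for Cck.

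Over all genes 230 passed between lines, 152 without the trend, 46 with the score as a covariate and 108 to 216 without 1 library. The count was 135, 109, 108 and 115 without bHR replicates 1 to 4, and 121 and 138 without bLR replicates 2 and 3. Of the 230, 44.3% were higher in bHR, against 57.7% of 194 with total-read scaling. For the score 0 passed, and 1 without the trend.

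Same-numbered rats were not treated as pairs in the main fit. The correlations of their deviations ran from -0.15 to 0.15, and a shared litter or test day was not tested. With the replicate block 108 genes passed between lines and 1 for the score, the slopes were -0.0025 for Gad1, -0.012 for Gad2, 0.011 for Pvalb, 0.018 for Sst, 0.027 for Vip and 0.032 for Cck, and none of the 6 line differences or slopes passed after adjustment. The planned count models were not run, since the table holds log2 values. With 5 rats per line, the data bound each difference only to its printed interval.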
